A study of Mus musculus with 6 samples.

Results

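The genes described here are 39 mouse genes known to be induced by interferons, chosen by name, with every bead-array probe that the platform's annotation assigns to one of those symbols. Of the 39 genes, 38 had at least 1 probe, 74 of the 45281 probes on the array belonged to them, and Ifi44 was not analysed here. For 30 of the genes a probe was above background on both arrays of at least 1 group, so that these 30 were among the 10533 features tested. They fall into 25 of 32 genes driven mainly by type I interferon, 4 of 6 GTPase genes known above all as targets of interferon-gamma, and Irf1, which answers to both kinds of interferon and was kept apart. A further 8 genes had a probe that did not pass. Of these, Ifit1, Oas1a, Mx1 and Ifih1 were above background on none of the 6 arrays, Isg20 was above it on 2 arrays, and Mx2, Iigp1 and Ifi47 were above it on 1 array each, so none of them is compared between groups.

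RNA came from macrophages called M2-like in the labels and described in the series title as positive for CD206, F4/80 and CD11b, taken from C57BL/6 mice 10 weeks old. The groups were cells of the intact heart, cells of the heart after myocardial infarction (MI), and cells of the peritoneal cavity, with 2 arrays each. The labels name no genetic change or drug treatment in any group, and the sources used here give neither the time after infarction nor the sort nor how many animals stand behind an array. No source states that the 2 arrays of a group are separate animals, so the p-values measure the spread between arrays, which may be technical.

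Between 12433 and 14606 probes per array were above background. All 8 macrophage markers with a probe were tested. Limma (adjusted p under 0.05) put 2 of them up and 2 down in the intact heart against the peritoneal cavity. Of all 10533 tests, 12.5% went up and 12.8% down there. With the MI heart set against the peritoneal cavity, 3 markers went up and 2 down, beside 9.16% and 8.45% of all tests. From intact to MI heart 2 markers went up and 0 down, beside 4.55% and 4.96% of all tests. The summed linear signal of the 8 markers was 3127 and 2968 in the intact heart and 3137 and 3689 in the MI heart. In the peritoneal cavity this sum was 4853 and 4157. Itgam had log2 signals of 6.32 and 5.64 in the intact heart and 7.15 and 6.86 in the MI heart. Its peritoneal signals were higher, at 8.16 and 7.96. Mrc1, the gene of CD206, had log2 signals of 9.57 and 9.51 in the intact heart, 8.64 and 9.07 in the MI heart and 5.20 and 4.99 in the peritoneal cavity, above background on all 6 arrays. The 2 MI heart arrays did not match each other for every gene described here. Replicate 1 was higher than replicate 2 for the GTPase genes, Irf1 and some type I genes, as given below, and results that rest on that array are given with and without it. In bulk RNA of this kind, more cells of one type and more RNA per cell cannot be told apart.

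Interferons are secreted proteins that warn cells of infection or damage. Type I interferons signal through the receptor pair IFNAR1 and IFNAR2 to a complex that includes STAT2 and IRF9 and binds the interferon-stimulated response element (ISRE) in front of antiviral genes. Interferon-gamma signals through IFNGR1 and IFNGR2 to factors that bind the gamma-activated site (GAS), and it also induces IRF1, which binds ISRE-like letters. The antiviral genes sense viral RNA, block its translation or degrade it, whereas the guanylate-binding proteins and immunity-related GTPases coat and disrupt compartments that hold intracellular microbes. Macrophages make both sets of proteins, and after infarction cardiac macrophages are known to take up nucleic acids from dying cells.

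Promoter windows running from 250 bases before to 50 bases after the RefSeq start site (mouse build GRCm38.p6) were found for 30 of the 39 genes, in 37 windows. The ISRE was searched as the letters GAAA, any 2 bases and GAAA again, and the GAS as TTCNNNGAA, both on either strand. ISRE letters stood in 18 of the 37 windows, against 3.44% of all 32851 promoter windows of the same length. They belonged to 17 genes, among them 13 of 24 type I genes and the GTPase genes Gbp2, Gbp3, Igtp and Irgm1 out of 5 with a window. GAS letters stood in 10 of the 37 windows, against 8.30% of all windows, and 1 GTPase gene, Igtp, carried them. Matches of both motifs overlapped each other in Bst2 and Ifitm3 only. A match is a description of the letters, and a window without one shows only that these letters are not in it. In Irf1, GAS letters began 90 bases before the start and ISRE letters did not occur. In Ifit2, GAS letters began 241 bases before the start, and the window held no ISRE letters.

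The windows of 6 genes are printed because these genes carry the results below. Rsad2, Isg15 and Ifit3 are the type I genes with ISRE letters and large differences between groups, and Gbp2, Igtp and Irgm1 are GTPase genes whose 2 MI heart arrays differed. The windows lie at chr12:26456403-26456702 on the minus strand (Rsad2), chr4:156200769-156201068 on the minus strand (Isg15), chr19:34583279-34583578 on the plus strand (Ifit3), chr3:142620413-142620712 on the plus strand (Gbp2), chr11:58199306-58199605 on the plus strand (Igtp) and chr11:48871371-48871670 on the minus strand (Irgm1). Each is written 5′ to 3′ along its gene, with ISRE letters of either strand in capitals.
Rsad2: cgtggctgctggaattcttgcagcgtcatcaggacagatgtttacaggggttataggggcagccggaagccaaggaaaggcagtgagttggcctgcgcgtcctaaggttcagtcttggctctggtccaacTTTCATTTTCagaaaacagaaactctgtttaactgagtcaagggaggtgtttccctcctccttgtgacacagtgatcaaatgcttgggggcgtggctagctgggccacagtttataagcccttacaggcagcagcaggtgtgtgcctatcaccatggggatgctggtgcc
Isg15: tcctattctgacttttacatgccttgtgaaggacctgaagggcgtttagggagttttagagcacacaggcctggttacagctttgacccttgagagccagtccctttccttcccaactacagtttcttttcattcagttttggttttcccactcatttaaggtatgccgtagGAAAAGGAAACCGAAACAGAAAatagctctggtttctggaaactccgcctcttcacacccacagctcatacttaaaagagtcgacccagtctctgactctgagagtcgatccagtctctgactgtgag
Ifit3: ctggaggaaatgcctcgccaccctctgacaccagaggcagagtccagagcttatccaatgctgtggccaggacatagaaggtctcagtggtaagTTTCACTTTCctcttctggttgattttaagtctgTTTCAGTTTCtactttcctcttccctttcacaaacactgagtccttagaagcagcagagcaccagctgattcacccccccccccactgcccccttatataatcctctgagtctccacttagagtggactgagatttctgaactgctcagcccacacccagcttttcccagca
Gbp2: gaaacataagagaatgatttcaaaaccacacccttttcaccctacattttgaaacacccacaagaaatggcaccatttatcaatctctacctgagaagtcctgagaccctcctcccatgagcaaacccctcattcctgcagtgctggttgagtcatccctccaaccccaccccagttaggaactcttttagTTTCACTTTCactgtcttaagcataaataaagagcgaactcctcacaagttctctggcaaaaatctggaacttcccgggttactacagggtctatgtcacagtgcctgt
Igtp: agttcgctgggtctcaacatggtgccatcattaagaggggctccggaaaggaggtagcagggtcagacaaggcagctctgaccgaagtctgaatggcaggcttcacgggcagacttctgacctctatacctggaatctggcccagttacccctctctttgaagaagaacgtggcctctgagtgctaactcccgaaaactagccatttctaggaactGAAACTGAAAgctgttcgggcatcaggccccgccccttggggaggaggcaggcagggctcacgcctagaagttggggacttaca
Irgm1: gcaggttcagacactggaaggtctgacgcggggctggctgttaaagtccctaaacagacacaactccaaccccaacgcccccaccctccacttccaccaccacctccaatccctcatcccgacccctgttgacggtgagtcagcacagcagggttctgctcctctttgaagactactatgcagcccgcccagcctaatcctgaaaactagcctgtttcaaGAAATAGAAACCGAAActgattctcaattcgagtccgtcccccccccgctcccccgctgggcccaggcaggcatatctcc

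The capitals lay at different distances from the start. In Rsad2 the single match began 120 bases before the start on the opposite strand, and in Ifit3 matches began 156 and 122 bases before it, also on the opposite strand. In Isg15, 3 overlapping matches began 78, 72 and 66 bases before the start. The GTPase matches were nearer, at 59 bases in Gbp2 (opposite strand), at 34 in Igtp and at 30 and 24 in Irgm1. In the plot of motif positions these distances can be read for all 17 genes.

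**Figure D1:**
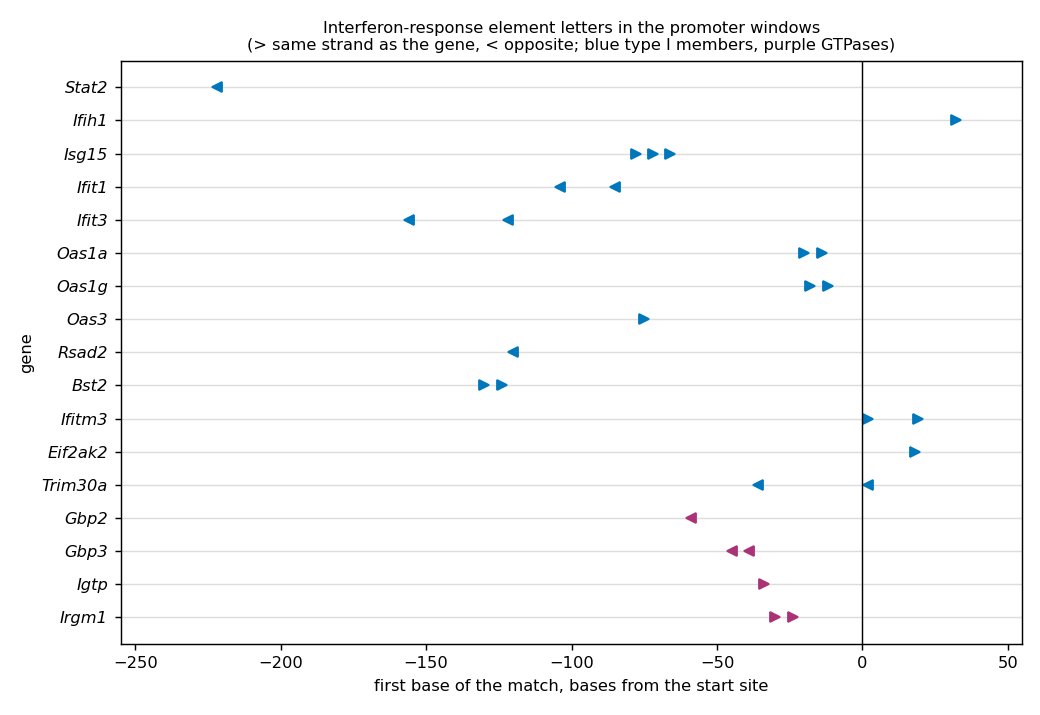
Position of ISRE letters in the promoter windows of the 17 genes that hold them, as the first base of each match in bases from the start site. Triangles pointing right lie on the gene's strand and triangles pointing left on the other, and blue marks type I genes and purple GTPase genes. The 4 GTPase genes have all their matches between 59 and 24 bases before the start, and some type I genes, such as Oas1a and Oas1g, have nearer ones.

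How many of these genes were above background differed between the groups. Of the 31 type I genes with a probe, 25 were above it on both MI heart arrays, 21 on both intact heart arrays and 16 on both peritoneal arrays. Those above it on no array numbered 4, 8 and 12 in the same order. Rsad2, Ifit2, Isg15, Oas3 and Oasl1 were among the 12 in the peritoneal cavity. The 4 tested GTPase genes were above background on all 6 arrays. Where a gene was not above background in the dimmer group, its fold is given below as a lower bound, set against the lowest signal above background there or the gene's own signal if higher.

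The 3 comparisons are of the MI heart with the intact heart, of the intact heart with the peritoneal cavity, and of the MI heart with the peritoneal cavity. Every pair of them shares a group, so their values are set side by side and not compared. Differences are given on the log2 scale as the first group minus the second, with the standard error (SE) of limma's fit and the Benjamini-Hochberg adjusted p over the 10533 tests, and a gene was called where this p was below 0.05.

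In the MI heart, 6 of the 25 tested type I genes had risen above the level of the intact heart, 1 was lower and 18 were not called. The higher genes were Rsad2, Isg15, Ifit2, Oas3, Samhd1 and Oasl1, and the lower one was Oas2. Of the 4 GTPase genes 1 was called higher (Gbp2) and Irf1 was not called. Among all 10533 tests, 4.55% were called higher in the MI heart and 4.96% lower. The median difference was 0.48 over the type I genes, 0.73 over the GTPase genes and -0.003 over all tests. The type I count fell to 2 without MI heart replicate 1, to 3 without MI heart replicate 2 and to 4 without any one of the other arrays, and that of the GTPase genes was 3 without MI heart replicate 2. Oas3 passed the filter through the MI heart arrays alone, where it was high. With only genes above background on every array (detection p under 0.01), 1 of the 14 type I genes then tested was called higher. That count has no share of all tests beside it, as the number of tests under this limit is not given here.

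Markers of other cells moved in the same comparison. Of 7 tested monocyte markers 4 were called higher in the MI heart (Plac8, Chil3, Hp and S100a4) and 1 lower (F13a1), with a median difference of 1.30. Plac8, Ccr2 and Ly6c1 passed the filter through the MI heart arrays alone, where they were highest, and lend the count and the median no support. Plac8 had log2 signals of 4.22 and 4.24 in the intact heart and 7.23 and 7.02 in the MI heart. The summed linear signal of the monocyte markers was 823 and 740 in the intact heart, 815 and 1042 in the MI heart and 473 and 541 in the peritoneal cavity. Of 6 tested fibroblast markers 3 were called higher in the MI heart (Sparc, Bgn and Col1a1). The summed signal of the 6 was 156 and 140 in the intact heart, 257 and 254 in the MI heart and 117 and 119 in the peritoneal cavity. Col1a2 and Postn were above background on no array. Col1a1 and Col3a1 passed through the MI heart arrays alone, where they were highest, and lend the counts for the MI heart no support. Of 7 tested cardiomyocyte markers none was called higher and 2 were called lower in the MI than in the intact heart (median difference -0.44). Against the peritoneal cavity, 2 fibroblast markers were called higher in the intact heart and 4 in the MI heart, and none lower. Of the cardiomyocyte markers 3 and 2 were called higher in these comparisons, and 1, Ryr2, was called lower in each. Ryr2 passed the filter through the peritoneal arrays alone, where it was highest. Among all tests 12.5% and 9.16% were called higher there and 12.8% and 8.45% lower. The part of these markers in the interferon-stimulated genes' differences was not tested.

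Cells of the intact heart were higher than those of the peritoneal cavity for 12 of the 25 type I genes, lower for none and not called for 13. The largest differences were those of Rsad2, Ifit2, Ifit3, Oas2 and Oasl2. Of the GTPase genes 1 of 4 was called higher (Irgm1), and Irf1 was called higher too. The background was 12.5% of all tests called higher and 12.8% called lower. The median difference was 0.56 over the type I genes, -0.16 over the GTPase genes and -0.026 over all tests. The type I count was 5 without peritoneal replicate 1, 8 without peritoneal replicate 2, and between 10 and 12 without any other array. At an unadjusted p under 0.05, 14 type I genes passed, as did 3988 of all 10533 tests.

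Cells of the MI heart were higher than those of the peritoneal cavity for 20 of the 25 type I genes and lower for none. Of the 20, Irf7, Oas3 and Cmpk2 passed the filter through the MI heart arrays alone, where they are high, and lend the count no support. With only genes above background on every array (detection p under 0.01), 14 type I genes were tested and 12 were called. How many tests this limit left is not given here, so that count has no share of all tests beside it. The 5 of the 25 type I genes that were not called were Irf9, Bst2, Ifi35, Xaf1 and Ifitm3. Of the GTPase genes 2 of 4 were called higher, Gbp2 and Irgm1, and so was Irf1. Of all tests, 9.16% were called higher and 8.45% lower. The median difference was 0.87 over the type I genes, 1.20 over the GTPase genes and -0.049 over all tests. The type I count was 8 without MI heart replicate 1, 14 without MI heart replicate 2, and 10 and 9 without peritoneal replicates 1 and 2. At an unadjusted p under 0.05, 21 type I genes passed, as did 3111 of all 10533 tests. Across the 3 comparisons, 23 of the 30 tested genes were called at least once, against 32.0% of all tests.

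**Figure D2:**
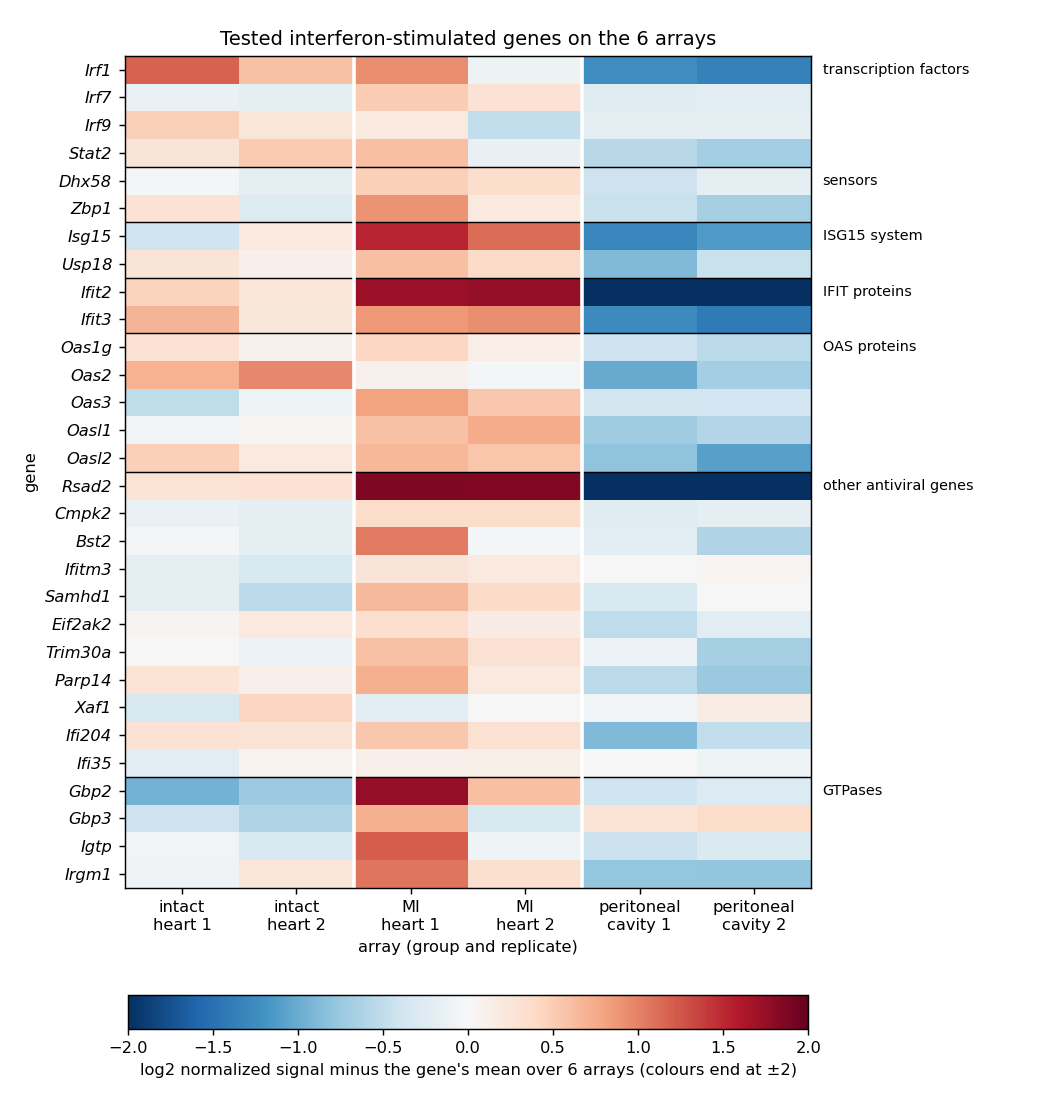
Log2 normalized signal of the 30 tested genes on each array, minus the gene's own mean over the 6 arrays, with genes grouped by role. Red is above and blue below the gene's mean, and colours end at 2 on either side. Rsad2 and Ifit2 are dark red on both MI heart arrays and dark blue on both peritoneal arrays, while the GTPase genes are redder on MI heart replicate 1 than on replicate 2.

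**Figure D3:**
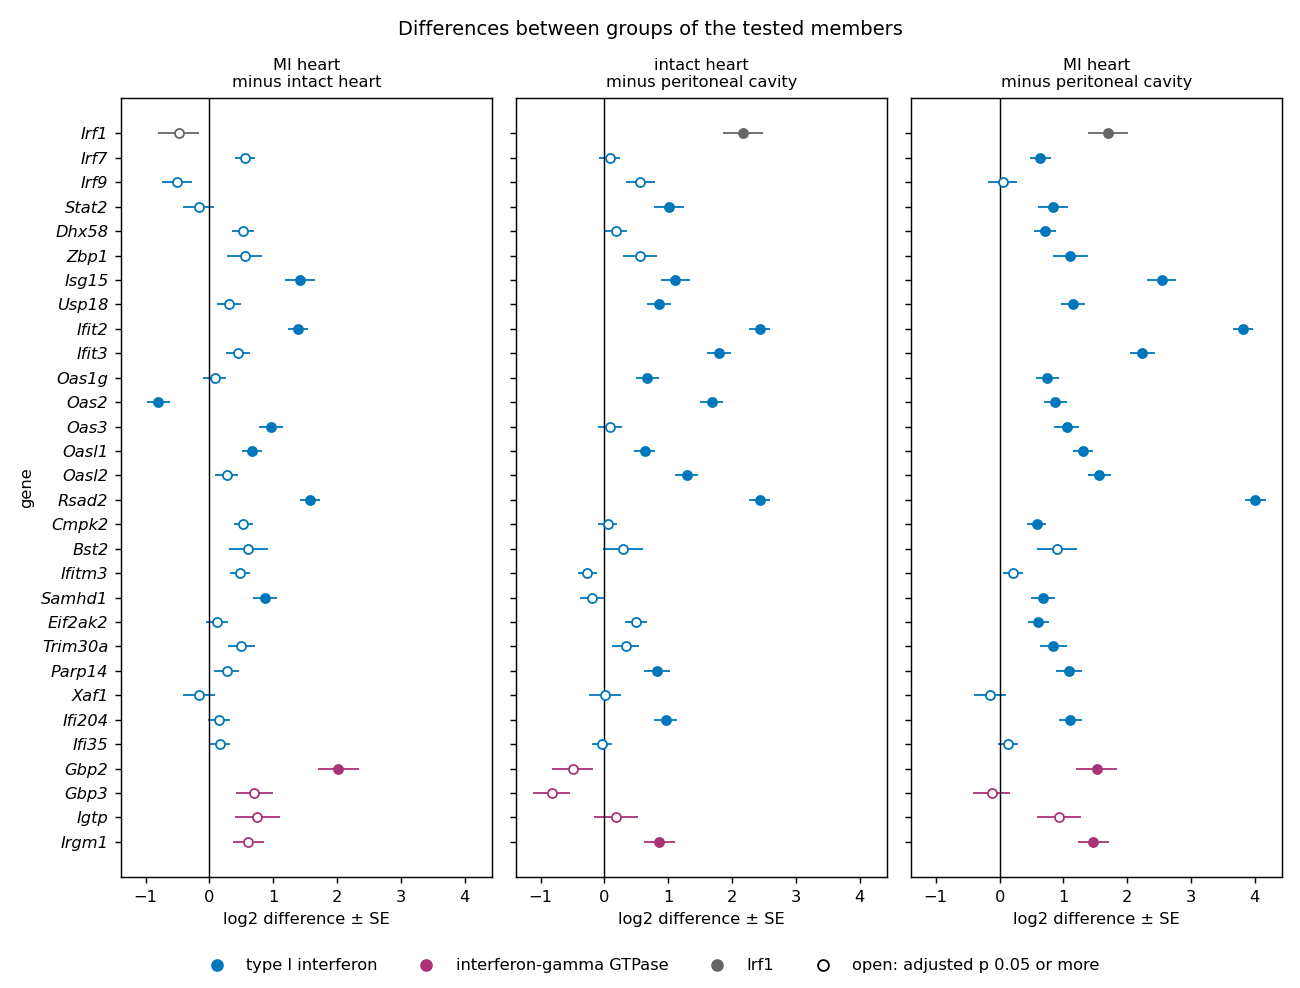
Log2 difference between groups for the 30 tested genes, with bars of 1 SE from limma's fit over the 6 arrays. Filled circles have an adjusted p under 0.05 and open circles do not, blue marks type I genes, purple GTPase genes and grey Irf1. Rsad2 and Ifit2 lie farthest right of 0 in the comparison of the MI heart with the peritoneal cavity, at measured differences of 4.01 and 3.82. Neither was above background in the peritoneal cavity, so these bear only the lower bounds of 15-fold and 12.3-fold.

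Among the transcription factors, Irf1 is induced by both kinds of interferon and itself switches on GTPase and antigen presentation genes. Its log2 signal was 9.90 and 9.32 in the intact heart, 9.65 and 8.62 in the MI heart and 7.49 and 7.38 in the peritoneal cavity. All 4 heart arrays lay above both peritoneal arrays, and the intact and MI heart arrays overlapped. Irf1 was 4.51-fold higher in the intact heart than in the peritoneal cavity (log2 difference 2.17 ± 0.32 SE, adjusted p = 0.00141), and this call held when any array was left out. It was 3.24-fold higher in the MI heart than in the peritoneal cavity (1.70 ± 0.32, adjusted p = 0.00662), a call that was lost without peritoneal replicate 1 or 2 (adjusted p = 0.0586 to 0.0691). Between the MI and the intact heart its difference was -0.48 ± 0.32 (adjusted p = 0.403), and 0.04 without MI heart replicate 2.

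Stat2 and Irf9 encode parts of the complex that type I interferon activates. Stat2 had log2 signals of 5.77 and 6.04 in the intact heart, 6.11 and 5.36 in the MI heart and 4.96 and 4.83 in the peritoneal cavity. Both heart groups lay above the peritoneal arrays and overlapped each other. It was 2.01-fold higher in the intact heart than in the peritoneal cavity (1.01 ± 0.24, adjusted p = 0.0163) and 1.79-fold higher in the MI heart (0.84 ± 0.24, adjusted p = 0.0450). The first call was lost without intact heart replicate 2 or either peritoneal array (adjusted p = 0.0686 to 0.111), and the second without MI heart replicate 1 or either peritoneal array (adjusted p = 0.159 to 0.267). Between the MI and intact heart Stat2 differed by -0.17 ± 0.24 (adjusted p = 0.727), and by 0.21 without MI heart replicate 2.

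Irf9 had log2 signals of 6.93 and 6.70 in the intact heart, 6.65 and 5.96 in the MI heart, and 6.26 on both peritoneal arrays. Its intact heart arrays were the highest, and the 2 MI heart arrays lay on either side of the peritoneal ones. The differences were -0.51 ± 0.23 for MI minus intact heart (adjusted p = 0.210), 0.56 ± 0.23 for intact heart minus peritoneal cavity (adjusted p = 0.109) and 0.05 ± 0.23 for MI heart minus peritoneal cavity (adjusted p = 0.912, and -0.30 without MI heart replicate 1), with none called. A second Irf9 probe with a lower signal was called in the first of these, at -0.86 ± 0.17 (adjusted p over all probes 0.0178), and in the second, at 1.10 ± 0.17 (adjusted p 0.00194).

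Irf7, the factor that amplifies type I interferon production, was above background on the 2 MI heart arrays alone. Its log2 signals were 4.30 and 4.25 in the intact heart, 4.95 and 4.72 in the MI heart and 4.19 and 4.21 in the peritoneal cavity. Both MI heart arrays were above the 4 others. It was at least 1.32-fold higher in the MI heart than in the peritoneal cavity (adjusted p = 0.0249), a call lost without either MI heart array or either peritoneal array (adjusted p = 0.0651 to 0.166). It was at least 1.27-fold higher than in the intact heart, which was not called (adjusted p = 0.0614).

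Of the sensors among the genes, Dhx58 and Zbp1 passed and Ifih1 did not. Dhx58 encodes LGP2, a helicase that tunes the sensing of viral RNA. Zbp1 encodes a protein that binds Z-form nucleic acid and can trigger cell death. Dhx58 ranged from 4.84 on a peritoneal array to 5.73 on an MI heart array, and Zbp1 from 5.07 to 6.64 on arrays of the same 2 groups. Both were called higher in the MI heart than in the peritoneal cavity, by 0.71 ± 0.17 (Dhx58, adjusted p = 0.0194) and 1.11 ± 0.27 (Zbp1, adjusted p = 0.0211), and neither was called in the other comparisons. Both calls were lost without MI heart replicate 1 or either peritoneal array, and that of Dhx58 also without MI heart replicate 2 (adjusted p = 0.0516 to 0.163). Other Dhx58 probes gave 0.54 and 0.44 and were not called. For Zbp1 the probes disagreed between the MI and intact heart. The brightest gave 0.55 ± 0.27 (adjusted p = 0.243), and the others were called at 1.06 ± 0.18 (adjusted p over all probes 0.00986) and 0.93 ± 0.17 (adjusted p 0.0137).

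Isg15 is a ubiquitin-like protein that interferon causes to be joined to other proteins, and Usp18 removes it again and damps signalling at the type I receptor. Isg15 had log2 signals of 5.10 and 5.70 in the intact heart, 7.02 and 6.62 in the MI heart and 4.20 and 4.37 in the peritoneal cavity. The 3 groups did not overlap, with the MI heart highest and the peritoneal cavity not above background. Isg15 was 2.68-fold higher in the MI than in the intact heart (1.42 ± 0.23, adjusted p = 0.00756). Without MI heart replicate 1 that difference was 1.22 and no longer called (adjusted p = 0.0874). Isg15 was at least 1.95-fold up in the intact heart (adjusted p = 0.00811) and at least 5.23-fold higher in the MI heart (adjusted p = 0.000112) than in the peritoneal cavity. The first of these calls was lost without peritoneal replicate 1 (adjusted p = 0.0752), without background correction (difference 0.33), with series matrix values (0.39) and with no filter (adjusted p = 0.0721 to 0.0849), and the second held when any array was left out. The call between the hearts was lost with no filter (adjusted p = 0.0869). Usp18 was called higher than in the peritoneal cavity in the intact heart (0.85 ± 0.19, adjusted p = 0.0121) and in the MI heart (1.15 ± 0.19, adjusted p = 0.00334). The call for the intact heart was lost without peritoneal replicate 1 (adjusted p = 0.0970). A second Usp18 probe was called in neither (0.18 ± 0.19 and 0.47 ± 0.19, adjusted p over all probes 0.522 and 0.129).

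The IFIT proteins bind viral RNA and stop its translation. Ifit2 had log2 signals of 6.76 and 6.56 in the intact heart, 8.03 and 8.07 in the MI heart and 4.23 on both peritoneal arrays. The groups were far apart compared with the distance between arrays of a group. Ifit2 was 2.62-fold higher in the MI than in the intact heart (1.39 ± 0.16, adjusted p = 0.00143). Against the peritoneal cavity it was at least 4.69-fold up in the intact heart (adjusted p = 1.32e-05) and at least 12.3-fold higher in the MI heart (adjusted p = 2.85e-06). All 3 calls held under the 14 alternatives that gave a value, leaving out each array included.

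Ifit3 was called against the peritoneal cavity only. Its log2 signals were 7.09 and 6.63 in the intact heart, 7.27 and 7.34 in the MI heart and 5.13 and 5.00 in the peritoneal cavity. Its level in the intact heart was 3.46-fold higher (1.79 ± 0.19, adjusted p = 0.000206) and 4.73-fold higher in the MI heart (2.24 ± 0.19, adjusted p = 7.33e-05) than in the peritoneal cavity. The 2 heart groups did not overlap, but their difference of 0.45 ± 0.19 was not called (adjusted p = 0.174). A second, dimmer Ifit3 probe was called in neither peritoneal comparison (0.06 and 0.33). The probe used may also bind the transcript of the near-identical Ifit3b, and the single Ifit1 probe was not above background.

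The OAS family makes or regulates a small messenger that activates an RNA-degrading enzyme, and its members moved in different directions between the hearts. Oas2 had log2 signals of 8.59 and 8.85 in the intact heart, 7.98 and 7.86 in the MI heart and 6.88 and 7.21 in the peritoneal cavity. The 3 groups did not overlap, and here the intact heart was highest. Oas2 was 1.74-fold lower in the MI than in the intact heart (-0.80 ± 0.18, adjusted p = 0.0285), and 3.19-fold higher in the intact heart than in the peritoneal cavity (1.68 ± 0.18, adjusted p = 0.000256). The call between the hearts was lost without intact heart replicate 2 or either MI heart array (adjusted p = 0.0868 to 0.180) and with array medians equalised (adjusted p = 0.0745), with the difference between -0.93 and -0.64 under all 15 alternatives. The call against the peritoneal cavity held under all 15. In the MI heart Oas2 was also above the peritoneal cavity (0.87 ± 0.18, adjusted p = 0.0107), a call lost without either MI heart array or peritoneal replicate 1 (adjusted p = 0.0626 to 0.0960).

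Oas3 and Oasl1 were higher in the MI heart. Oas3 had log2 signals of 4.29 and 4.72 in the intact heart, 5.61 and 5.33 in the MI heart and 4.43 and 4.41 in the peritoneal cavity, and only the MI heart arrays and 1 intact heart array were above background. Oas3 was at least 1.8-fold higher in the MI than in the intact heart (adjusted p = 0.0171), a call lost without intact heart replicate 1 or either MI heart array (adjusted p = 0.0607 to 0.145). Oasl1 had log2 signals of 4.78 and 4.86, 5.41 and 5.57, and 4.12 and 4.25 in the intact heart, the MI heart and the peritoneal cavity. It separated the 3 groups without overlap. Its difference between the hearts (0.67 ± 0.16, adjusted p = 0.0319) was no longer called when any one array was left out (difference 0.60 to 0.75). Of the other Oasl1 probes, 1 gave 0.52 ± 0.15 (adjusted p over all probes 0.0653) and 1 gave 0.73 ± 0.18 (adjusted p 0.0368). Oasl1 was called at least 2.09-fold higher in the MI heart than in the peritoneal cavity (adjusted p = 0.000552) under all 14 alternatives, and at least 1.31-fold up in the intact heart (adjusted p = 0.0187), which was lost without intact heart replicate 2 or either peritoneal array (adjusted p = 0.0558 to 0.111) and not seen in 2 other Oasl1 probes (0.10 and 0.09).

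Oasl2 had log2 signals of 7.12 and 6.84 in the intact heart, 7.30 and 7.20 in the MI heart and 5.83 and 5.56 in the peritoneal cavity. Both heart groups were above the peritoneal arrays. The differences were 1.29 ± 0.18 for the intact heart (adjusted p = 0.000949) and 1.56 ± 0.18 for the MI heart (adjusted p = 0.000395), and both calls held under 15 alternatives. A second Oasl2 probe gave 0.18 ± 0.16 for the intact heart and was not called (adjusted p over all probes 0.461). Oas1g, of which 4 of 5 probes passed, showed that probes of this family do not speak with one voice. The brightest differed by 0.08 ± 0.18 between the hearts (adjusted p = 0.824), and another was called lower in the MI heart (-0.66 ± 0.17, adjusted p over all probes 0.0440). Oas1a and Oas1g are near-identical copies whose probes may bind either transcript, so their values are uncertain.

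Rsad2, which encodes the antiviral enzyme viperin, gave the largest differences of the type I genes. Its log2 signals were 6.75 and 6.77 in the intact heart, 8.35 and 8.32 in the MI heart and 4.24 and 4.42 in the peritoneal cavity. The arrays of each group lay close together and the 3 groups far apart. Rsad2 was 2.99-fold higher in the MI than in the intact heart (1.58 ± 0.16, adjusted p = 0.000818). Against the peritoneal cavity it was at least 5.01-fold up in the intact heart (adjusted p = 1.28e-05) and at least 15-fold higher in the MI heart (adjusted p = 2.52e-06). These 3 calls also held under all 14 alternatives. Its neighbour Cmpk2, a mitochondrial nucleotide kinase gene, was above background in the MI heart only, at 4.88 and 4.89, and was called in the comparison with the peritoneal cavity alone (at least 1.37-fold, adjusted p = 0.0285), a call lost without either MI heart or either peritoneal array (adjusted p = 0.106 to 0.143).

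Samhd1, which depletes nucleotides needed for viral DNA synthesis, had log2 signals of 8.25 and 7.91 in the intact heart, 9.08 and 8.82 in the MI heart and 8.13 and 8.42 in the peritoneal cavity. The MI heart was highest and the other groups overlapped. Samhd1 was 1.83-fold higher in the MI than in the intact heart (0.87 ± 0.19, adjusted p = 0.0275), and the call was lost without any one array other than intact heart replicate 1 (adjusted p = 0.0537 to 0.186). Its call against the peritoneal cavity (0.68 ± 0.19, adjusted p = 0.0438) was lost without either MI heart or either peritoneal array (adjusted p = 0.0850 to 0.252).

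The remaining antiviral genes differed less. Ifi204, a DNA-binding protein of a family with near-identical copies, and Parp14, an ADP-ribosyltransferase, were called higher in both hearts than in the peritoneal cavity, with differences between 0.82 and 1.11. Other Parp14 probes were not called, at -0.10 ± 0.32 and 0.62 ± 0.19 for the MI heart (adjusted p over all probes 0.870 and 0.0562) and, for 1 of them, at 0.87 ± 0.32 for the intact heart (adjusted p 0.0842). Eif2ak2, the kinase PKR that halts translation, and Trim30a, an inhibitor of inflammatory signalling, were called higher in the MI heart than in the peritoneal cavity by 0.61 ± 0.17 (adjusted p = 0.0381) and 0.84 ± 0.21 (adjusted p = 0.0267). Each of the calls of these 4 genes was lost without at least 1 MI heart, intact heart or peritoneal array (adjusted p = 0.0536 to 0.224), except that of Ifi204 in the MI heart (1.11 ± 0.18, adjusted p = 0.00332). Ifitm3, a membrane protein that blocks virus entry, had signals between 9.16 and 9.73 on all arrays and was never called, and neither were Bst2, Xaf1 and Ifi35. Among these, Bst2 (tetherin) stood out by its spread within the MI heart, with 6.01 on replicate 1 and 4.94 on replicate 2.

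**Figure D4:**
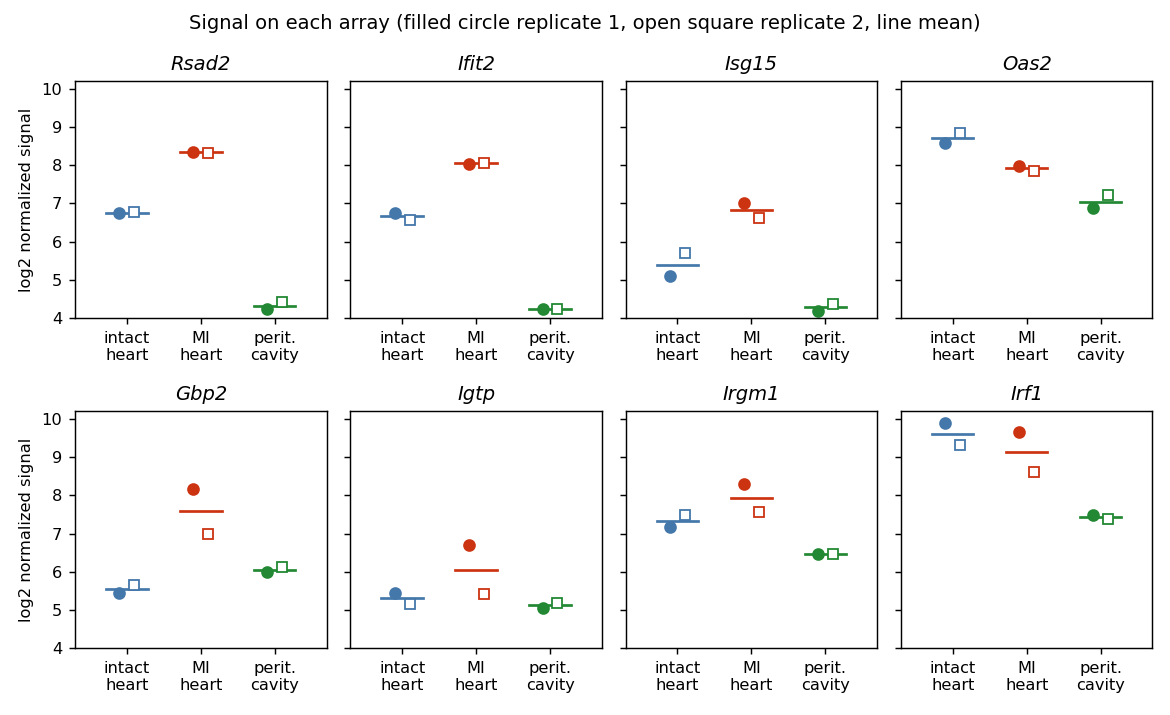
Log2 normalized signal of 8 genes on each array, with replicate 1 as a filled circle, replicate 2 as an open square and a line at the group mean. In the upper row the MI heart arrays of Rsad2, Ifit2, Isg15 and Oas2 lie within 0.40 of each other, while in the lower row MI heart replicate 1 lies 0.75 to 1.29 above replicate 2 for Gbp2, Igtp, Irgm1 and Irf1.

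The 4 tested GTPase genes did not share one order of the groups. Gbp2, a guanylate-binding protein, had log2 signals of 5.45 and 5.67 in the intact heart, 8.16 and 7.00 in the MI heart and 6.00 and 6.12 in the peritoneal cavity. Both MI heart arrays were above the 4 others, and they differed from each other more than the arrays of the other groups did. Gbp2 was 4.07-fold higher in the MI than in the intact heart (2.02 ± 0.32, adjusted p = 0.00669), the largest difference of any of the 30 genes in that comparison. The call held when any array was left out, with a difference of 1.44 without MI heart replicate 1 and 2.60 without replicate 2. With no filter on dim probes, with series matrix values or if the background was not corrected, it was lost (adjusted p = 0.0578 to 0.107). Another Gbp2 probe gave 2.00 ± 0.32 (adjusted p over all probes 0.00775), and the dimmest gave 0.23 ± 0.16 (adjusted p 0.414). Against the peritoneal cavity Gbp2 was 2.87-fold higher in the MI heart (1.52 ± 0.32, adjusted p = 0.0111), a call lost without either peritoneal array (adjusted p = 0.0756 and 0.0970), and its difference in the intact heart was -0.50 ± 0.32 (adjusted p = 0.285).

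Gbp3, another guanylate-binding protein, had log2 signals of 6.71 and 6.53 in the intact heart, 7.84 and 6.81 in the MI heart and 7.40 and 7.50 in the peritoneal cavity. The peritoneal arrays were above those of the intact heart, and the MI heart arrays lay on either side of them. None of its differences was called, at 0.70 ± 0.29 for MI minus intact heart (adjusted p = 0.171), -0.83 ± 0.29 for intact heart minus peritoneal cavity (adjusted p = 0.0680) and -0.12 ± 0.29 for MI heart minus peritoneal cavity (adjusted p = 0.822). Without MI heart replicate 2 the first was 1.21 and called (adjusted p = 0.0362), without replicate 1 it was 0.19 (adjusted p = 0.687), and the third was 0.39 without replicate 2. With either MI heart array left out, the intact heart was called lower than the peritoneal cavity (adjusted p = 0.0158), in a fit that the spread between the MI heart arrays does not enter.

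Igtp and Irgm1 are immunity-related GTPases that act on vacuoles holding microbes and on autophagy. Igtp had log2 signals of 5.44 and 5.17 in the intact heart, 6.70 and 5.41 in the MI heart and 5.06 and 5.20 in the peritoneal cavity. Only MI heart replicate 1 stood out from the rest. Igtp differed by 0.75 ± 0.35 between the hearts (adjusted p = 0.224), by 1.39 without MI heart replicate 2 (adjusted p = 0.0295) and by 0.11 without replicate 1 (adjusted p = 0.852). It was called in no comparison over all arrays (0.18 ± 0.35 for the intact heart and 0.93 ± 0.35 for the MI heart minus the peritoneal cavity), but without MI heart replicate 2 the latter was 1.57 (adjusted p = 0.00638).

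Irgm1 had log2 signals of 7.17 and 7.49 in the intact heart, 8.31 and 7.57 in the MI heart and 6.48 and 6.46 in the peritoneal cavity. The peritoneal arrays were the lowest, and MI heart replicate 2 was close to the intact heart. Irgm1 was 2.76-fold higher in the MI heart than in the peritoneal cavity (1.47 ± 0.24, adjusted p = 0.00338), and this call held when any array was left out. Its level in the intact heart was 1.81-fold higher than in the peritoneal cavity (0.86 ± 0.24, adjusted p = 0.0324), a call lost without intact heart replicate 2 or either peritoneal array (adjusted p = 0.124 to 0.145) and with array medians equalised. A second Irgm1 probe gave 0.25 ± 0.29 there (adjusted p over all probes 0.567). Between the hearts it differed by 0.61 ± 0.24 (adjusted p = 0.160), by 0.98 without MI heart replicate 2 and by 0.24 without replicate 1. Iigp1 and Ifi47, above background on 1 MI heart array each, were not tested.

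Calls of the 30 genes were also lost when the values were prepared in another way (adjusted p = 0.0516 to 0.244). Between the hearts those of Gbp2, Oas3 and Oasl1 were lost without background correction and with series matrix values, those of Isg15, Oas2, Oas3, Samhd1 and Gbp2 with no filter, and those of Oasl1 and Samhd1 in a fit of the 2 heart groups only. For the intact heart against the peritoneal cavity, Isg15, Stat2 and Irgm1 were lost without background correction and with series matrix values. There, with no filter, Isg15, Stat2, Oas1g, Usp18, Parp14 and Irgm1 were lost, and with equal array medians Oas1g and Irgm1. For the MI heart against the peritoneal cavity, Stat2, Cmpk2, Zbp1, Samhd1 and Gbp2 were lost without background correction and with series matrix values, and Trim30a and Irf1 without background correction. There, with no filter, Stat2, Oas1g, Oas2, Zbp1, Parp14, Trim30a, Eif2ak2, Samhd1, Gbp2, Irgm1 and Irf1 were lost.

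The 2 MI heart arrays were set against each other for every gene, as a description of 2 libraries with no test. Replicate 1 exceeded replicate 2 by more than 0.5 on the log2 scale for all 4 tested GTPase genes (0.75 to 1.29, median 1.09) and for Irf1 (1.04), against 3.62% of all tests, whose median was 0.01 and SD 0.273. Of the 25 type I genes 5 did so (median 0.22), namely Bst2 (1.07), Stat2 (0.75), Zbp1 (0.70), Irf9 (0.69) and Parp14 (0.52), and 13 of the 25 lay above the upper quartile of all tests, 0.17. Rsad2 (0.04), Ifit2 (-0.04), Ifit3 (-0.07), Cmpk2 (-0.01) and Oasl1 (-0.16) were nearly equal on both arrays or slightly lower on replicate 1. Other probes that passed did not all repeat the gaps. On MI heart replicates 1 and 2 they had 5.87 and 6.13 for Irf9. Those of Zbp1 had 6.33 and 6.01, and 5.56 and 5.22. Those of Parp14 had 6.49 and 5.43, and 5.17 on both. Those of Gbp2 had 7.20 and 6.26, and 4.51 and 4.53. Those of Irf1 had 5.89 and 5.70, 8.52 and 7.97, 7.52 and 6.75, and 7.45 and 6.71. The GTPase genes showed no such gap between the arrays of the intact heart (median -0.02) or of the peritoneal cavity (median -0.11). Irf1 was higher on replicate 1 by 0.58 in the intact heart and by 0.11 in the peritoneal cavity. Under the 5 other ways of preparing the values the GTPase median was between 0.63 and 1.21 and the type I median between 0.09 and 0.31.

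Genes outside the 39 were looked at in 2 further lists. Of 11 tested genes known as targets of interferon-gamma, 8 were higher on MI heart replicate 1 by more than 0.5 (median 0.76). They were Batf2 (1.69), the chemokine Cxcl9 (1.46), Irgm2 (0.94), the tryptophan tRNA ligase gene Wars (0.88), the checkpoint ligand Cd274 (0.80), Gbp7 (0.76), Ciita (0.64) and Cxcl10 (0.54). Of 23 further type I targets 1 was, Slfn1 (1.11), and their median was 0.10. Between the intact heart arrays, 3 of the 11 interferon-gamma targets were higher on replicate 1 by more than 0.5 and 1 was lower by more than 0.5 (median 0.15). Between the peritoneal arrays 0 differed by that much (median -0.02). Some markers of other cells also differed between the 2 MI heart arrays. The neutrophil genes S100a9 (7.25 and 5.42 on MI heart replicates 1 and 2) and Mmp9 (6.35 and 4.99) were higher on replicate 1. The neutrophil genes Csf3r (5.29 and 5.47) and Ltf (4.39 and 4.35) were not. Of the 7 tested monocyte markers, Chil3 was higher on replicate 2 (6.73 and 8.30) and Hp on replicate 1 (6.78 and 5.79). The median over that list was -0.10. The summed linear signal of the 4 neutrophil markers tested, of 11 on the array, was 293 and 139 in the MI heart, 132 and 111 in the intact heart and 152 and 150 in the peritoneal cavity. The neutrophil genes Cxcr2, Ngp, Camp, Retnlg and Mpo were above background on no array. Of the T and natural killer cell markers, 2 of 10 with a probe were tested, with a summed signal of 60 and 58 in the MI heart and 46 to 108 over all arrays, and Cd3e, Cd3g, Nkg7, Ncr1 and Gzmb were above background on no array. The part of these markers in the result was not tested.

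**Figure D5:**
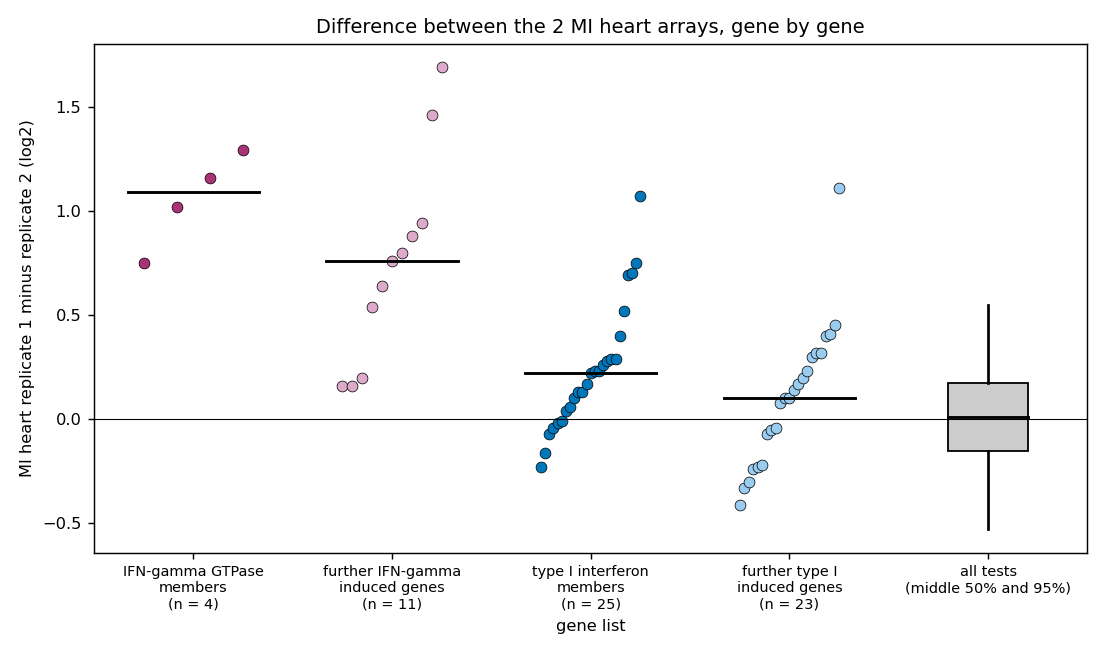
Log2 signal of each gene on MI heart replicate 1 minus replicate 2, by gene list, with a line at each list's median. The box holds the middle 50% of all 10533 tests and its whiskers the middle 95%, and all 4 GTPase genes lie above 0.5, as do 5 of the 25 type I genes, of which 13 lie above the upper edge of the box at 0.17.

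The rest of the pathway was read from lists of ligands, receptors, relays, inhibitors and sensors. Few ligand genes were measurable, with 3 of 14 tested. Ifnz, a type I interferon of mice, had log2 signals of 5.74 and 5.43 in the intact heart, 4.20 and 4.27 in the MI heart and 5.01 and 5.00 in the peritoneal cavity. The tested probe was not above background in the MI heart, but on both MI heart arrays another Ifnz probe was. By the tested probe, Ifnz in the MI heart was at least 2.21-fold lower than in the intact heart (adjusted p = 0.00236). It was at least 1.48-fold lower there than in the peritoneal cavity (adjusted p = 0.0130). The first call held without any array, and the second was lost without either MI heart or either peritoneal array (adjusted p = 0.0760 to 0.0929). Ifna1 was also called lower in the MI than in the intact heart (-0.64 ± 0.15, adjusted p = 0.0323), a call lost without any one of the 6 arrays. Both ligands were called higher in the intact heart than in the peritoneal cavity, by 0.58 ± 0.17 (Ifnz) and 0.51 ± 0.15 (Ifna1), also without holding for most arrays left out. Probes of the interferon-alpha family can bind several of its near-identical members, so these values are uncertain.

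Of 5 tested receptor genes none was called between the hearts or between the intact heart and the peritoneal cavity. There limma gave an unadjusted p under 0.05 for 0 and 2 of them, and for 2649 and 3988 of all 10533 tests. Ifngr2 was 2.12-fold higher in the MI heart than in the peritoneal cavity (1.08 ± 0.24, adjusted p = 0.0155), with log2 signals of 8.40 and 8.75 against 7.49 and 7.50, a call lost without any one of these 4 arrays (adjusted p = 0.0518 to 0.148). Between the hearts the differences were 0.42 ± 0.24 for Ifngr2 (adjusted p = 0.326), 0.04 ± 0.29 for Ifngr1 (adjusted p = 0.953) and 0.16 ± 0.17 for Ifnar2 (adjusted p = 0.619). Against the peritoneal cavity Ifngr1 differed by 0.60 ± 0.29 in the intact heart and 0.64 ± 0.29 in the MI heart, and Ifnar2 by 0.27 ± 0.17 and 0.43 ± 0.17, with none called. Ifngr1 was called in the intact heart without intact heart replicate 2 (adjusted p = 0.0148) and in the MI heart without either intact heart array (adjusted p = 0.0482). Ifngr2 was called in the intact heart without its replicate 1 (adjusted p = 0.0104). Ifnar1 did not pass the filter.

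Of 3 tested relays, Jak1 was called at least 1.45-fold lower in the MI than in the intact heart (adjusted p = 0.0385) and at least 1.46-fold higher in the intact heart than in the peritoneal cavity (adjusted p = 0.0287). Both calls were lost without any one array other than intact heart replicate 1. Jak1 passed the filter through the intact heart arrays alone, where it was highest. Of 7 tested negative regulators, Socs3, which shuts off cytokine receptors, had log2 signals of 8.86 and 8.76 in the intact heart, 8.88 and 8.34 in the MI heart and 6.52 and 6.92 in the peritoneal cavity. All heart arrays were above the peritoneal ones. Its differences were 2.09 ± 0.22 for the intact heart (adjusted p = 0.000214) and 1.89 ± 0.22 for the MI heart (adjusted p = 0.000448), and both held without any array. Pias1, an inhibitor of cytokine signalling, was lower in the MI than in the intact heart (-0.65 ± 0.15, adjusted p = 0.0319), and that call was lost without any one array other than intact heart replicate 2. Ptpn6, a phosphatase, and Pias3, an inhibitor of STAT3, were lower in the intact heart than in the peritoneal cavity (-0.63 ± 0.19 and at least 1.27-fold, adjusted p = 0.0426 and 0.0312), and Pias3 also in the MI heart (at least 1.32-fold, adjusted p = 0.0474). Each of these calls was lost without at least 3 of the 6 arrays. The tested Pias3 probe passed the filter through the peritoneal arrays alone, where it was highest. The calls of Ifna1, Jak1, Pias1, Pias3, Ptpn6 and Ifngr2 and those of Ifnz against the peritoneal cavity were also lost under at least 1 other preparation or fit (adjusted p = 0.0526 to 0.137). In the list of negative regulators 0, 3 and 2 genes were called higher and 1, 2 and 1 lower in the 3 comparisons. Among all tests 4.55%, 12.5% and 9.16% were called higher and 4.96%, 12.8% and 8.45% lower.

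Of 12 tested genes that sense nucleic acid upstream of interferon, none was called between the hearts. At an unadjusted p under 0.05, 2 of them passed there, as did 2649 of all 10533 tests. Against the peritoneal cavity 4 were called higher in the intact heart (12.5% of all tests) and 4 in the MI heart (9.16%), and none lower. Tlr9, the receptor for bacterial and mitochondrial DNA, had log2 signals of 5.67 and 6.08 in the intact heart, 5.81 and 6.04 in the MI heart and 4.17 and 4.20 in the peritoneal cavity, where it was not above background. The heart groups overlapped. It was at least 2.72-fold up in the intact heart (adjusted p = 0.000286) and at least 2.81-fold higher in the MI heart (adjusted p = 0.000288) than in the peritoneal cavity. Its adaptor Myd88 was 1.24 ± 0.17 higher in the intact heart (adjusted p = 0.000991) and 0.91 ± 0.17 in the MI heart (adjusted p = 0.00650), the latter lost without MI heart replicate 1 or peritoneal replicate 2.

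Among 23 tested type I targets outside the 39 genes, 4 were called higher and 1 lower in the MI than in the intact heart, against 4.55% and 4.96% of all tests. Ifi205, a relative of Ifi204, had log2 signals of 4.54 and 4.38 in the intact heart, 6.66 and 6.22 in the MI heart and 4.31 and 4.20 in the peritoneal cavity. Its tested probe was above background on both MI heart arrays and 1 intact heart array, and in the MI heart at least 3.82-fold higher than in the intact heart (adjusted p = 0.000717). That probe passed the filter through the MI heart arrays alone, where it was highest. Slfn1, a regulator of T cell growth, was 3.64-fold higher in the MI than in the intact heart (1.86 ± 0.32, adjusted p = 0.00912) and 5.41-fold lower in the intact heart than in the peritoneal cavity (-2.43 ± 0.32, adjusted p = 0.000709), with signals of 4.58 and 4.62, 7.02 and 5.91, and 7.22 and 6.85 in the intact heart, the MI heart and the peritoneal cavity. The call of Slfn1 between the hearts was lost without background correction (difference 0.71), with series matrix values (0.82) and with no filter (adjusted p = 0.0891 to 0.124). Dtx3l, the one lower gene (-0.81 ± 0.19, adjusted p = 0.0334), lost its call without any one array. Against the peritoneal cavity 2 of the 23 genes were called higher and 1 lower in the intact heart, no more than the 12.5% and 12.8% of all tests, and 5 higher in the MI heart (9.16% of all tests). Ifi27l2a, an interferon target of unclear function, led the higher genes of the intact heart (1.58 ± 0.20, adjusted p = 0.000653) and was called in the MI heart as well (1.51 ± 0.20, adjusted p = 0.000969), in both without any array. Slfn2 was the other (0.76 ± 0.21, adjusted p = 0.0307), and its call was lost without any one array other than intact heart replicate 1.

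Among 11 tested interferon-gamma targets outside the 39 genes, 3 were called higher in the MI than in the intact heart (4.55% of all tests) and none lower. Cd274, the gene of PD-L1, had log2 signals of 4.61 and 4.54 in the intact heart, 6.98 and 6.18 in the MI heart and 4.41 and 4.20 in the peritoneal cavity, and was 4.01-fold higher in the MI than in the intact heart (2.00 ± 0.25, adjusted p = 0.00226). Cxcl9, which draws T cells, had 5.15 on both intact heart arrays, 7.84 and 6.38 in the MI heart and 4.24 and 4.26 in the peritoneal cavity, and was 3.90-fold higher in the MI than in the intact heart (1.96 ± 0.38, adjusted p = 0.0152). For both, the MI heart arrays were above all others, with replicate 1 the higher. The Cxcl9 call was lost without intact heart replicate 1 or either peritoneal array (adjusted p = 0.0509 to 0.0513). It was also lost without background correction (difference 0.95), with series matrix values (1.07), with no filter and with 2 groups only (adjusted p = 0.0509 to 0.166). The Cd274 call was lost with no filter (adjusted p = 0.0526).

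Cxcl10, a chemokine that both kinds of interferon induce, was the most different gene of these lists. Its log2 signals were 8.21 and 7.24 in the intact heart, 8.65 and 8.11 in the MI heart and 4.20 and 4.37 in the peritoneal cavity, where it was not above background. The hearts overlapped and lay far above the peritoneal arrays. Cxcl10 was at least 9.83-fold up in the intact heart (adjusted p = 8.48e-05) and at least 15.4-fold higher in the MI heart (adjusted p = 4.01e-05), and both calls held without any array. Of the list's 11 genes, 3 were called higher and 1 (Wars) lower in the intact heart than in the peritoneal cavity, against 12.5% and 12.8% of all tests. In the MI heart 7 were called higher and none lower, against 9.16% and 8.45% of all tests. Ciita, the activator of class II antigen presentation genes, was at least 1.79-fold up in the intact heart (adjusted p = 0.0108), a call lost without intact heart replicate 1 or either peritoneal array (adjusted p = 0.0526 to 0.0783). The Wars call (-0.86 ± 0.26, adjusted p = 0.0418) was lost without either intact heart or either peritoneal array (adjusted p = 0.0738 to 0.203). The calls given for Ciita, Wars, Dtx3l and Slfn2 were also lost under at least 1 other preparation or fit (adjusted p = 0.0516 to 0.229).

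Plasmacytoid dendritic cells, a main source of type I interferon, are marked by Siglech, whose log2 signals were 5.83 and 5.72 in the intact heart, 4.57 and 4.48 in the MI heart and 4.29 and 4.53 in the peritoneal cavity. Siglech was lower in the MI than in the intact heart (-1.26 ± 0.16, adjusted p = 0.00280). Of the markers of these cells, Ccr9, Ly6d and Klk1 were above background on no array, and 5 of 8, Bst2 among them, were tested. Their summed signal was 253 and 247 in the intact heart, 220 and 210 in the MI heart and 140 and 133 in the peritoneal cavity. Only Siglech was called between the hearts, and Bst2 differed by 0.61 ± 0.31 the other way (adjusted p = 0.265). Against the peritoneal cavity 3 of the 5 were called higher in the intact heart and 2 in the MI heart, and 0 lower. Among all tests 12.5% and 9.16% were called higher there. The part of these markers in the differences from the peritoneal cavity was not tested.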

How the data were processed

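RNA of 6 samples, 2 in each of 3 groups set by the condition and tissue in the labels, was measured on Illumina mouse bead arrays. Trizol-extracted, DNase I-treated RNA was made into biotinylated cRNA, per the labels. The authors deposited, per the file headers, linear probe intensity values with detection p-values, not normalized between arrays, and a series matrix of intensity values brought to one distribution. The scanner software is not named in the sources used here. In the series matrix, the rank order of the values showed that replicate numbers of the MI heart and peritoneal columns are swapped against the signal table, with groups unchanged. The numbers used here are those of the signal table.

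Signals were processed in R 4.3.3 with limma 3.58.1. The function neqc, which here takes its negative controls from the detection values, was run with an offset of 16 and gave quantile-normalized log2 signals. Probes with a detection p below 0.05 on the 2 arrays of some group passed (14817 probes). The platform table names 1 gene for 34885 probes, several for 18 and none for 10378, and for each gene the probe with the highest mean was used, giving 8244 genes and 2289 unnamed probes. Group means were fitted with lmFit and eBayes over all 6 arrays (3 residual and 5.78 prior degrees of freedom), and the 3 comparisons were tested two-sided, adjusted after Benjamini-Hochberg over 10533 tests each. The members and lists were chosen with earlier results of these data known, and no value supports the choice.

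Genes are named by a written rule. In each comparison values are given for up to 6 called members with the largest difference per direction, for the GTPase genes and for Irf1, Irf7, Irf9 and Stat2. Of the other lists it takes up to 2 called genes per direction and the interferon receptors. Other genes named were chosen after their values were seen. Alternatives were no background correction, equal array medians over the probes that passed, the series matrix values, no filter, detection p under 0.01 on all arrays, every probe on its own, limma-trend, 2 groups only, a replicate block and leaving out each array. The small number of arrays limits the precision. The fit was tested on simulated data. Promoters came from RefSeq, build GRCm38.p6. The number of columns with sample values left unused is 0.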

Additional observations from a re-analysis of the deposited data

How the results depend on the processing

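Of the calls of named genes, 254 held and 106 were lost when 1 array was left out, and 424 held and 84 were lost under the other alternatives, and none of these called differences reversed. Rsad2 and Ifit2 kept their calls in the 3 comparisons throughout. Without each array in turn, the type I genes called numbered 2 to 4 higher (6 over all arrays) and 0 to 1 lower between the MI and intact heart, 5 to 12 higher in the intact heart than in the peritoneal cavity, and 8 to 20 higher in the MI heart than in the peritoneal cavity. The GTPase genes called higher numbered 1 to 3, 0 to 1 and 1 to 3 in the same order, with 0 to 1 lower in the second. All tests called numbered 249 to 970 (1001 over all arrays), 1426 to 2388 (2673) and 917 to 2174 (1855).

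Between the MI and intact heart, all tests called were 600 without background correction, 653 with series matrix values, 424 with no filter, 565 with detection p under 0.01 on all arrays and 590 with 2 groups only. The GTPase genes called there were 0 in the first 3 of these settings. The strict detection limit, which drops genes dim in any group, left 1 of 14 tested type I genes called higher. The number of tests under the strict limit or with no filter is not given here, so counts under them have no share of all tests. Equal array medians or no filter left 0 type I genes called lower. For the intact heart against the peritoneal cavity, 7 of 31 type I genes were called with no filter and 7 of 14 with the strict limit (1523 of all tests). There, 1 type I gene was called lower without background correction and with series matrix values. The GTPase genes called higher were 0 without background correction, with equal medians, with series matrix values and with no filter, and 1 (Gbp3) was called lower with equal medians, the strict limit, limma-trend and 2 groups only. For the MI heart against the peritoneal cavity, 12 of 31 type I genes were called with no filter and 12 of 14 with the strict limit (1184 and 1054 of all tests). GTPase genes called in that comparison were 1, 1 and 0 without background correction, with series matrix values and unfiltered. The cause was not tested, apart from the fewer genes tested under the strict limit. Equal array medians gave 629 higher and 399 lower calls between the hearts (61.2% higher, against 479 and 522, or 47.9%).

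Same-numbered arrays of different groups deviated together only weakly (correlations 0.0829, 0.181 and 0.168), and no label says that numbers mark pairs. With the replicate number as a block, 1315, 3037 and 2150 tests were called in the 3 comparisons, with 6, 13 and 21 type I genes and 1, 1 and 2 GTPase genes higher and 1 GTPase gene, Gbp3, lower in the second.

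Without 1 array, differences that were not called turned sign. Between the hearts, Ifngr1 ranged from -0.42 (without intact heart replicate 2) to 0.50, at -0.04 without MI heart replicate 2. Irf1 ranged from -1.00 to 0.04 and Stat2 from -0.54 to 0.21, positive without MI heart replicate 2. Between the MI heart and the peritoneal cavity, Irf9 ranged from -0.30 (without MI heart replicate 1) to 0.40 and Gbp3 from -0.64 to 0.39 (without MI heart replicate 2). With no filter, a choice added after seeing the data, the median of MI heart replicate 1 minus 2 was 0 over the further type I targets.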
